A study of Mus musculus with 30 samples.

Results

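The genes described here are 9 markers that neuroanatomists use to recognise GABAergic interneurons, the inhibitory cells of the cortex, followed in the primary visual cortex (V1) of the mouse. They are Gad1, Gad2, Slc32a1, Lhx6, Dlx1, Pvalb, Calb1, Calb2 and Erbb4, chosen by symbol as named markers of this cell class. All probe sets that the array annotation gives to 1 of these symbols alone were taken, which came to 17 probe sets for the 9 genes, out of 36899 probe sets and 15964 genes on the arrays. V1 was dissected from mouse litters reared under standard conditions at postnatal day 14 (P14), P28 and P60, with 3, 3 and 4 litters. Total RNA of every litter went onto 3 Affymetrix array types, called chips A, B and C here. No genotype, strain, sex or number of animals per litter is given in the sources used here. The values are MAS5 signals, a linear brightness per probe set, and every p-value assumes that the litters are separate samples. In whole tissue, fewer cells of a type and less RNA per cell cannot be told apart.

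Interneurons make GABA from glutamate with 2 decarboxylases, encoded by Gad1 and Gad2, and load it into synaptic vesicles through the transporter encoded by Slc32a1. Many of them are born in the ventral forebrain, where homeodomain transcription factors of the Dlx and Lhx families set their fate before they migrate into the cortex. In the mature cortex they are divided by what they express: parvalbumin (Pvalb) marks fast-spiking basket and chandelier cells, and the related calcium buffers calbindin (Calb1) and calretinin (Calb2) mark other classes. In V1 the maturation of parvalbumin cells after eye opening is known for its part in opening the critical period for ocular dominance plasticity.

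The start regions of the genes for the 2 GABA-making enzymes are shown because 1 probe set of each was called by limma between P60 and P14, in opposite directions, once P14 litter 1 was left out. The Gad2 call is that of its chip B probe set, which entered the test through the age at which it was high. The other tested Gad2 probe set was not called in that fit (log2 change -0.53, adjusted p = 0.52). Each window runs from 250 bases before to 50 bases after a transcription start, from RefSeq on GRCm38.p6, and 7 of the 9 members had at least 1 such window. Capitals mark a TATA box (TATAAA), a GC box (GGGCGG) or a half-site of the cyclic AMP response element (TGACG), each read on both strands, and no matches overlapped in these windows.
Gad1, chr2:70561879-70562178, plus strand: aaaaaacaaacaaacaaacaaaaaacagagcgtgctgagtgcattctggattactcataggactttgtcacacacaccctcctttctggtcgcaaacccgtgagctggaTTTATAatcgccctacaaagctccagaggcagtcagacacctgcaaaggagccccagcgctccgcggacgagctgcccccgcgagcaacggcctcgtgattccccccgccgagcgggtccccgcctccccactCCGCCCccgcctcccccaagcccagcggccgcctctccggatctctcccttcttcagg
Gad2, chr2:22622077-22622376, plus strand: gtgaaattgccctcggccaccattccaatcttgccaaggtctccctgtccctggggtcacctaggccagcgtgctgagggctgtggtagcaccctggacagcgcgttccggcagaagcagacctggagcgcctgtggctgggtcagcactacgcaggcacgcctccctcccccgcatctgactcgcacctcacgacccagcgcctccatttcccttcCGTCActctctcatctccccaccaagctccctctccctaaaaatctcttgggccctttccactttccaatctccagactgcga
The Gad1 window held 1 match to the TATA box and 1 to the GC box and no half-site, whereas the Gad2 window held 1 half-site and neither of the others. Relative to the start, the Gad1 matches began at base -141 (TATA box) and -8 (GC box), and the Gad2 half-site at -33. All of these matches lie on the strand opposite to the printed one. Of 32851 windows of this length in the table, 13.6% held the TATA box, 35.7% the GC box and 20.8% the half-site. The homeodomain core TAATTA, searched because Lhx6 and Dlx1 encode homeodomain proteins, was present in 5.29% of all windows and in neither of the printed ones. These matches are letters in a window and say nothing of which factor binds there.

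The arrays did not all behave alike. On P14 litter 1 the signal ratio of 3' to 5' probe sets, a measure of RNA integrity, lay between 9.57 and 12.8 for the control genes Gapdh and Actb, against 0.741 to 1.5 on the other 27 arrays. P60 litters 1 and 4 on chips A and B and P60 litter 2 on chip C correlated on average at 0.858 to 0.923 with the rest of their chip, where the arrays of the remaining litters apart from P14 litter 1 lay between 0.896 and 0.951. Results are therefore also given without P14 litter 1 and in a restricted set that leaves out those P60 arrays as well. Both rest on P14 litters 2 and 3 alone at P14. At P60 the restricted set keeps litters 2 and 3 on chips A and B, and litters 1, 3 and 4 on chip C. As a background level, the 95th percentile of 15 Bacillus control probe sets came to 98.4 (chip A), 153 (B) and 252 (C). Testing required a signal over the chip's median on at least 3 arrays, which 14 of the 17 member probe sets did, at least 1 for each gene.

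With all litters, limma called none of the 14 tested member probe sets in any comparison at an adjusted p of 0.05. The closest were Gad2 on chip B and Dlx1 in P60 against P14, at log2 changes of -1.42 and -0.81. For P28 against P14, 0.00483% of all 20724 tested probe sets were called, for P60 against P28 0%, for P60 against P14 0.396% (0.106% higher and 0.29% lower), and for the 3 ages together 0.111%. At an unadjusted p under 0.05 there were 0 member probe sets for P28 against P14, 0 for P60 against P28, 2 for P60 against P14 and 1 for the 3 ages together. Over all tested probe sets, 7.87% had such a p for P28 against P14, 5.43% for P60 against P28 and 15.7% for P60 against P14, so that a count of 2 of 14 in the last of these lies near the background. With 1 probe set per gene, 3 of the 9 genes had a higher and 6 a lower mean log2 signal at P60 than at P14, with a median log2 change of -0.46, where the median of all tested probe sets was 0.06. The median of the 9 genes was -0.22 without P14 litter 1 and -0.0602 for the restricted set, where those of all tested probe sets were 0.0221 and 0.0109. Without P14 litter 1, limma called 2 member probe sets for P60 against P14, Gad1 higher and Gad2 on chip B lower, where 2.4% of all probe sets were called (0.738% higher and 1.66% lower). The 3 ages together then called 1 member probe set, Gad1, where 0.627% of all were called. In the restricted set Gad1, Gad2 on chip B and Calb2, the last one lower, were called, where 2.13% of all were called (0.82% higher and 1.31% lower), and the 3 ages together called none, where 1.07% of all were called. For P28 against P14 no member was called in either of these fits, in which 0.125% (0.0483% higher and 0.0772% lower) and 1% (0.401% higher and 0.603% lower) of all probe sets were called, with 4 and 6 member probe sets at an unadjusted p under 0.05 (28.6% and 42.9% of the 14), where 10.3% and 15.6% of all probe sets had such a p.

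With each array weighted by the size of its residuals in the fit, limma called 5 of the 14 for P60 against P14. P14 litter 1 had low weights, 0.105 on chip A and 0.164 on chip B. The P60 arrays that stood apart on these chips were not weighted down against their age mates. Litters 1 and 4 had 0.775 and 1.26 on chip A, where litters 2 and 3 had 0.538 and 0.51. On chip B they had 1.31 and 1.15, where litters 2 and 3 had 0.45 and 0.342. Gad1 (1.08, adjusted p = 0.00485) and the dim Pvalb probe set of chip A (0.93, adjusted p = 0.0209) were higher, the second against P14 litters 2 and 3 that lay below the Bacillus level, at 95.9 and 88.9. Gad2 on chip B (-2.28, adjusted p = 0.00112), Calb2 (-0.70, adjusted p = 0.0185) and Slc32a1 (-0.68, adjusted p = 0.0491) were lower. Of all probe sets 17.5% were called in that fit (8.07% higher and 9.4% lower). For P28 against P14 it called 3, the same Gad1 and Pvalb probe sets higher and Gad2 on chip B lower, where 5.61% of all were called (2.93% higher and 2.68% lower), and for the 3 ages together 4, where 14.6% of all were called. In the restricted set, which leaves out P60 litters 1 and 4 on chip A, the Slc32a1 change between P60 and P14 was -0.07.

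Counted by whether the litters of 2 ages overlapped at all, 1 of the 14 was entirely lower at P28 than at P14 and 0 were entirely higher, where 8.41% and 9.45% of all tested probe sets were. At P60 against P14, 1 was entirely higher and 0 entirely lower, where 6.61% and 6.42% were. Without P14 litter 1 the P28 litters were entirely higher for 4 (18.9% of all) and entirely lower for 3 (18.7%), and the P60 litters entirely higher for 3 (13.9%) and entirely lower for 2 (14.9%).

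**Figure D1:**
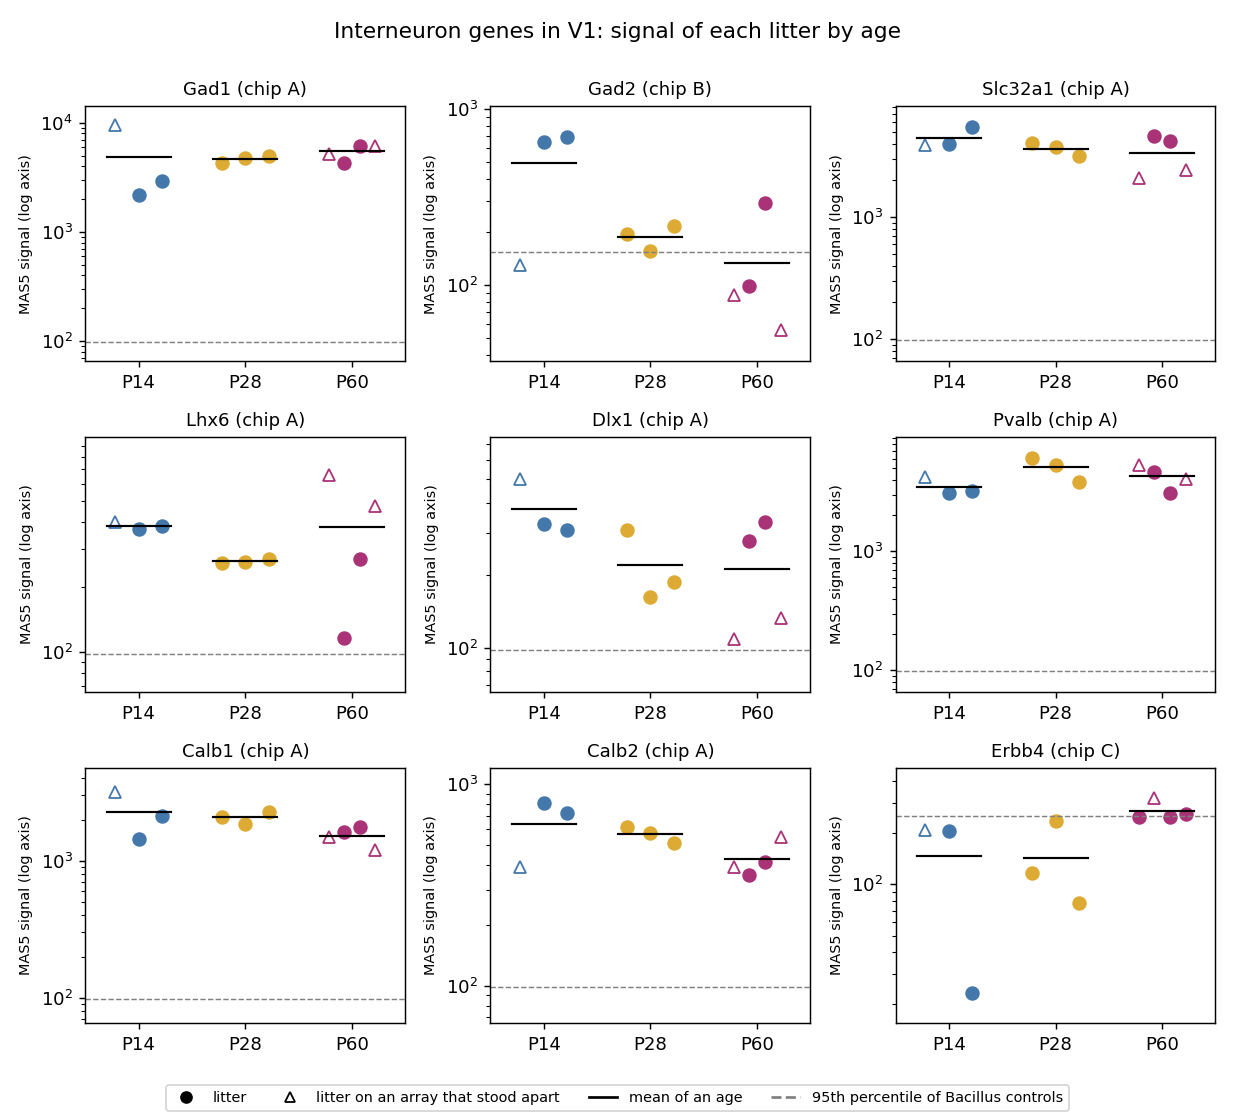
MAS5 signal (log axis) of each litter at P14, P28 and P60 for the main probe set of each of the 9 genes; black bars are age means, the dashed line is the 95th percentile of Bacillus controls, and open triangles are litters on arrays that stood apart. Gad1 at 9459 and Gad2 at 130 in P14 litter 1 lie far from the other P14 litters, and Erbb4 lies near the control level.

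Gad1 encodes the decarboxylase that makes most of the GABA used throughout the neuron. On chip A (probe set 103061_at) it stood at 9459, 2167 and 2939 in P14 litters 1, 2 and 3, at 4298, 4747 and 4942 in the P28 litters, and at 5186, 4282, 6144 and 6175 in the P60 litters. P14 litter 1 was the highest of the 10 litters and the other P14 litters were the lowest, so that P14 spanned all other ages. The log2 change between P60 and P14 was 0.45 with a standard error of 0.395, a 95% interval of -0.41 to 1.31 and an adjusted p of 0.594. With that litter left out, the 7 P28 and P60 litters all lay above the remaining P14 litters. Gad1 then rose by a log2 change of 1.08 at P60 (standard error 0.189, interval 0.67 to 1.49, adjusted p = 0.0187), and in the restricted set by 1.01 (adjusted p = 0.0396). For P28 against P14 the change without that litter was 0.87 (interval 0.44 to 1.31, adjusted p = 0.132), and for P60 against P28 it was 0.21 (interval -0.15 to 0.57, adjusted p = 0.711). A signal of 3.71 times the mean of P14 litters 2 and 3 put P14 litter 1 at the 99.2nd percentile of the tested probe sets of chip A. The part of its RNA integrity in this was not tested. The other Gad1 probe set, on chip B, ranged from 11.2 to 79.7, below the Bacillus level in every litter, and gives no measure of the gene.

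Gad2 encodes the decarboxylase concentrated at nerve terminals. On chip B (109431_at) its signals were 130, 646 and 691 in P14 litters 1, 2 and 3, 193, 155 and 215 in the P28 litters, and 87.2, 97.9, 290 and 55.2 in the P60 litters. P14 litters 2 and 3 stood above all others and P14 litter 1 among the P60 litters, at 0.195 times the mean of its age mates. The log2 change between P60 and P14 was -1.42 (standard error 0.507, interval -2.53 to -0.32, adjusted p = 0.217). When P14 litter 1 was left out, Gad2 fell by 2.07 on the log2 scale (interval -2.99 to -1.15, adjusted p = 0.0321), and in the restricted set by 1.64 (adjusted p = 0.0443). Of the 3 arrays on which this probe set exceeded the chip median, 2 were those P14 arrays, so it entered the test through the age at which it was high. At P60 3 of its 4 signals lay below the Bacillus level of 153, and the size of the change there depends on the added constant.

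The other Gad2 probe sets did not show a difference of that size. On chip C (166542_at) the signals were 285, 340 and 221 at P14, 227, 230 and 179 at P28, and 199, 253, 204 and 88.6 at P60, and only 3 of the 10 exceeded the Bacillus level of that chip. Its log2 change between P60 and P14 was -0.55 with all litters (interval -1.32 to 0.23, adjusted p = 0.468) and -0.53 without P14 litter 1 (adjusted p = 0.52). On chip A (92899_at) the signals ran from 138 to 175 at P14, from 72.8 to 154 at P28 and from 105 to 182 at P60, overlapping throughout, and the probe set was too dim to be tested. The Gad2 probe sets therefore disagree on how much the transcript differed between the ages.

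Slc32a1 encodes the vesicular transporter that fills inhibitory vesicles with GABA and glycine. On chip A (101420_at) its signals were 3864, 3963 and 5417 at P14, 4009, 3754 and 3161 at P28, and 2079, 4600, 4229 and 2443 in P60 litters 1 to 4. The lowest 2 of the 10 were P60 litters 1 and 4, the litters on arrays that stood apart, while P60 litters 2 and 3 lay among the P14 litters. The log2 change between P60 and P14 was -0.46 (standard error 0.285, interval -1.08 to 0.16, adjusted p = 0.44), and -0.07 in the restricted set (interval -0.50 to 0.36, adjusted p = 0.889). Slc32a1 in P14 litter 1 lay close to its age mates, at 0.824 times their mean.

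Lhx6 encodes a LIM homeodomain factor needed by interneurons that come from the medial ganglionic eminence, among them the parvalbumin and somatostatin cells. Its signals on chip A (94176_at) were 399, 372 and 384 at P14 and 258, 262 and 269 at P28, with P28 below P14 in every litter. At P60 they spread from 117 to 659, with 659, 117, 270 and 474 in litters 1 to 4, and the widest gap among the ages lay within P60. The log2 change between P28 and P14 was -0.49 (interval -1.43 to 0.45, adjusted p = 0.833) in a fit whose spread is shared by the ages. Lhx6 was the only member probe set of the 14 with P28 litters entirely below P14 litters, and 8.41% of all tested probe sets showed the same. The mean of P60 litters 1 and 4 was 2.92 times that of P60 litters 2 and 3, and in the restricted set the change between P60 and P14 was -0.93 (interval -1.60 to -0.25, adjusted p = 0.14).

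Dlx1 encodes a homeodomain factor of the ventral forebrain that is kept on in a part of the cortical interneurons. On chip A (98394_at) its signals were 500, 327 and 307 at P14, 310, 163 and 188 at P28, and 109, 277, 333 and 134 at P60. P60 litters 1 and 4 were again the lowest of the 10, at 0.397 times the mean of P60 litters 2 and 3, and litters 2 and 3, at 277 and 333, lay near the lower P14 litters. Between P60 and P14 the log2 change was -0.81 (standard error 0.36, interval -1.59 to -0.02, adjusted p = 0.305). Leaving out P14 litter 1 gave -0.61 (adjusted p = 0.419) and the restricted set -0.06 (interval -0.69 to 0.58, adjusted p = 0.944). Across the litters Dlx1 and Slc32a1 had a Pearson correlation of 0.77 and a Spearman correlation of 0.61 (10 litters, the same arrays), a description to which P60 litters 1 and 4 contribute.

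**Figure D2:**
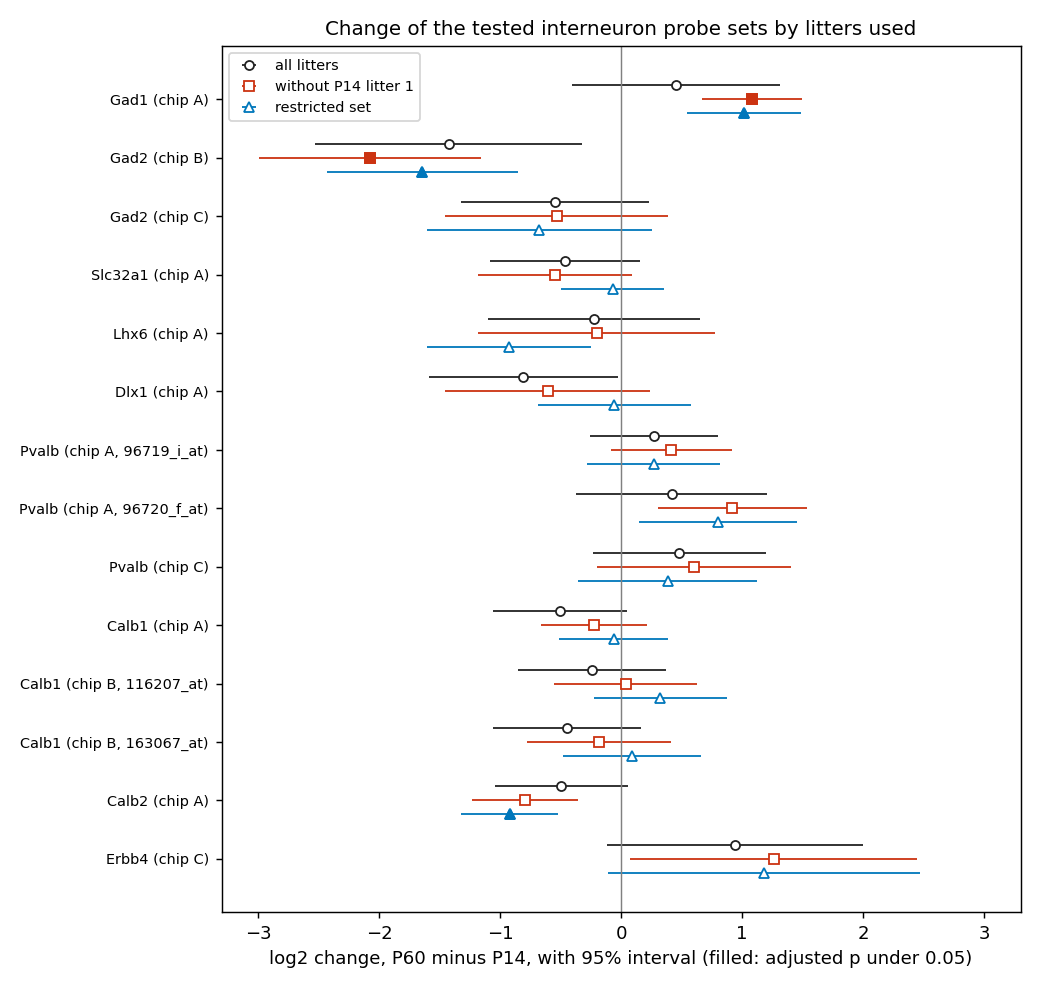
Log2 change between P60 and P14 with its 95% interval for the 14 tested member probe sets, with all litters (circles), without P14 litter 1 (squares) and in the restricted set (triangles); filled symbols have an adjusted p under 0.05. No circle is filled, the squares of Gad1 (1.08) and Gad2 on chip B (-2.07) are filled, and so are the triangles of these 2 and of Calb2 (-0.92).

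Pvalb encodes parvalbumin, the calcium buffer of fast-spiking cells. On chip A (96719_i_at) its signals were 4238, 3071 and 3184 at P14, 6107, 5345 and 3817 at P28, and 5305, 4642, 3079 and 4022 at P60. The highest 2 litters were P28 litters and the ages overlapped. The means were 3498 ± 644 (SD, n = 3) at P14, 5090 ± 1166 (SD, n = 3) at P28 and 4262 ± 947 (SD, n = 4) at P60. On chip C (168316_i_at) the signals were 6047, 4922 and 4501 at P14, 9182, 11268 and 4970 at P28, and 6117, 11185, 4452 and 8616 at P60. The third Pvalb probe set, on chip A (96720_f_at), was dim, from 88.9 to 333, and its highest value came from P14 litter 1, at 3.6 times its age mates. All 3 Pvalb probe sets had a positive log2 change between P28 and P14, of 0.52 (interval -0.04 to 1.09, adjusted p = 0.667), 0.64 (interval -0.12 to 1.41, adjusted p = 0.697) and 0.38 (adjusted p = 0.857) in the order given.

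Without P14 litter 1 the P28 litters lay above the P14 litters in all 3 Pvalb probe sets, as 18.9% of all tested probe sets did. The changes were then 0.67 (adjusted p = 0.344), 0.76 (adjusted p = 0.551) and 0.89 (adjusted p = 0.3), none of which passed. Between P60 and P14 they were 0.41 (adjusted p = 0.348), 0.60 (adjusted p = 0.397) and 0.92 (adjusted p = 0.105). For the dim probe set both remaining P14 litters, at 95.9 and 88.9, lay below the Bacillus level of 98.4, so the sizes of its changes depend on the added constant. These probe sets report 1 gene in the same litters, the pair on chip A from the same database entry, and are not independent. The bright pair correlated at 0.76 over the 10 litters (Pearson, Spearman 0.85), and the dim one at 0.44 and 0.21 with them. The dim probe set followed Gad1 more closely than the other Pvalb probe sets, at 0.94 (0.91 without P14 litter 1). An f suffix marks a probe set designed to a family of similar sequences, so its signal may not come from Pvalb alone.

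Calb1 encodes calbindin, found in a set of interneurons and, more weakly, in upper-layer pyramidal cells. On chip A (98133_at) its signals were 3193, 1447 and 2138 at P14, 2091, 1856 and 2286 at P28, and 1500, 1623, 1751 and 1195 at P60. Every P60 litter lay below every P28 litter, as in 4.46% of all tested probe sets, while P14 spanned both. For P60 against P28 the log2 change was -0.45 (standard error 0.255, interval -1.01 to 0.10, adjusted p = 0.897). For P60 against P14 it was -0.50 with all litters (adjusted p = 0.353) and -0.06 in the restricted set (interval -0.51 to 0.39, adjusted p = 0.914). The 2 Calb1 probe sets on chip B, 116207_at and 163067_at, followed the one on chip A closely, with Pearson correlations of 0.86 and 0.94 over the 10 litters. They ranged from 342 to 884 and from 387 to 1100, each with its highest value in P14 litter 1, with log2 changes between P60 and P14 of -0.24 (adjusted p = 0.703) and -0.45 (adjusted p = 0.451). In the restricted set the direction turned, to 0.33 and 0.09.

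Calb2 encodes calretinin, a marker of interneurons that come from the caudal ganglionic eminence. On chip A (95036_at) its signals were 387, 808 and 719 at P14, 613, 572 and 514 at P28, and 391, 357, 414 and 549 at P60. P14 litter 1 stood with the P60 litters and the other P14 litters above all. The log2 change between P60 and P14 was -0.49 (standard error 0.252, interval -1.04 to 0.06, adjusted p = 0.358). Without P14 litter 1 it was -0.80 (interval -1.23 to -0.36, adjusted p = 0.0594), and in the restricted set Calb2 fell by 0.92 on the log2 scale (interval -1.32 to -0.52, adjusted p = 0.0334). The restricted set compared P60 litters 2 and 3, at 357 and 414, with P14 litters 2 and 3. It left out P60 litter 4, the highest at that age, at 549. For P60 against P28 the change was -0.39 with all litters (interval -0.94 to 0.16, adjusted p = 0.898).

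Erbb4 encodes a receptor tyrosine kinase for neuregulins that in the cortex is found mainly on interneurons. On chip C (137043_r_at) its signals were 207, 205 and 23.2 at P14, 116, 233 and 78.1 at P28, and 247, 320, 247 and 256 at P60. The P60 litters lay above all P14 and P28 litters, as 6.61% of all tested probe sets did against P14 and 3.9% against P28. Only 2 of the 10 values exceeded the Bacillus level of 252, so the signal was near background at every age. The log2 change between P60 and P14 was 0.94 (standard error 0.491, interval -0.12 to 2.00, adjusted p = 0.364), a size that depends on the added constant. The other Erbb4 probe set, on chip A, ranged from 21.9 to 67.1, below the Bacillus level in every litter. The arrays thus give no firm level for Erbb4.

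**Figure D3:**
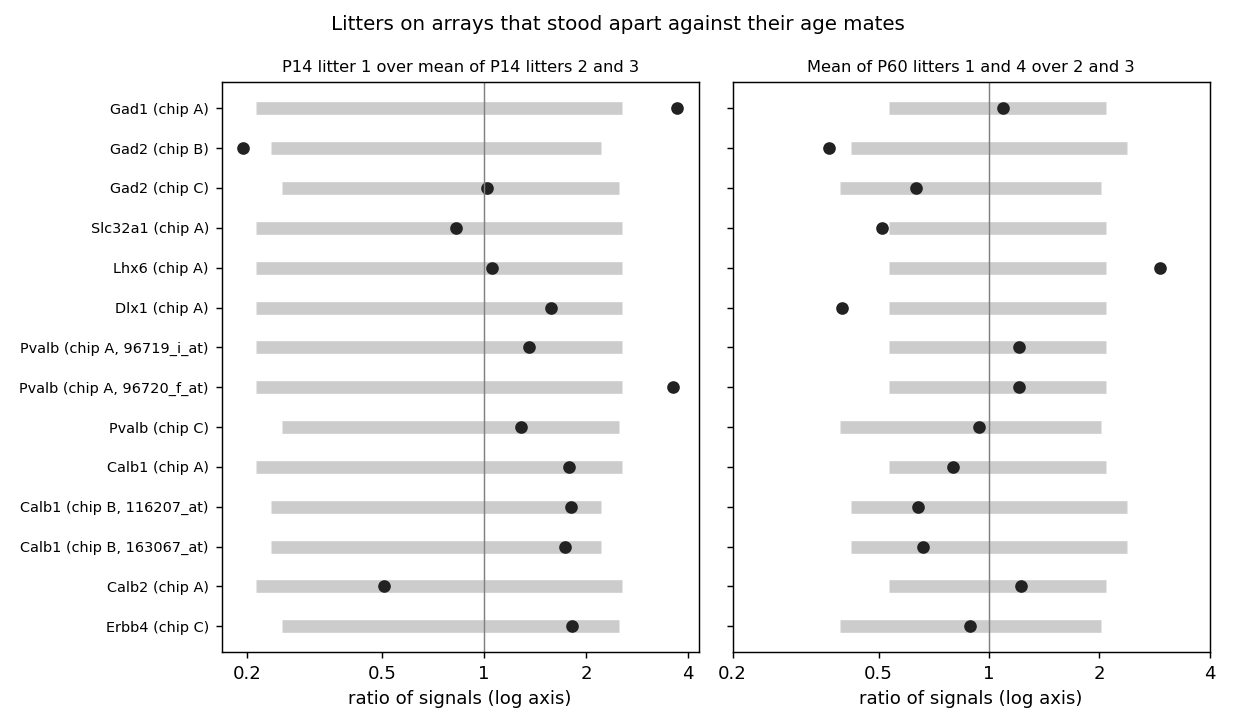
Ratio of signals (log axis) for each tested member probe set: left, P14 litter 1 over the mean of P14 litters 2 and 3, and right, the mean of P60 litters 1 and 4 over the mean of P60 litters 2 and 3. Grey bars span the 5th to the 95th percentile of all tested probe sets of the chip; Gad1 at 3.71 and Gad2 on chip B at 0.195 lie outside on the left, and Lhx6 at 2.92 and Dlx1 at 0.397 on the right. For chip C the P60 array that stood apart was that of litter 2.

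How far single litters carried the members was read from ratios within an age. P14 litter 1 stood outside the 5th to 95th percentile of its chip for 3 of the 14 member probe sets, which were Gad1 (3.71), the dim Pvalb probe set (3.6) and Gad2 on chip B (0.195), where 10% of all probe sets do so by construction. P60 litters 1 and 4 against litters 2 and 3 did so for 4, which were Lhx6 (2.92), Slc32a1 (0.512), Dlx1 (0.397) and Gad2 on chip B (0.367). The bright Pvalb probe sets and those of Calb1 and Calb2 lay inside both ranges. On chip C, however, the P60 array that stood apart was that of litter 2, which is in the lower part of this ratio. For the chip C probe sets the P60 ratio therefore does not set that array apart. Pvalb on chip C was highest at P60 in that litter, at 11185.

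The members did not move as 1 block over the litters. Gad1 and Gad2 on chip B had a Pearson correlation of -0.71 (-0.77 without P14 litter 1), and Gad1 and Calb2 of -0.74 (-0.71). Gad2 on chip B had 0.69 (0.68) with Calb2 and 0.64 (0.66) with Slc32a1. The Gad2 probe set of chip C had -0.36 (-0.72) with Gad1, 0.10 (0.23) with Calb2 and 0.56 (0.57) with Slc32a1. Pvalb and Slc32a1 had -0.34, and Pvalb and Calb1 0.07. These values rest on 10 litters that share RNA and, within a chip, arrays, and are given as a description.

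Among the 6155 other named probe sets of chip A, the one most like Gad1 over the litters was that of Tbr1, a transcription factor of deep-layer excitatory neurons, with a Pearson correlation of 0.98 (Spearman 0.89, and Pearson 0.98 without P14 litter 1). Tbr1 stood at 9346, 2150 and 2850 in the P14 litters, at 4492, 5120 and 4325 in the P28 litters, and at 4820, 4336, 5745 and 5382 in the P60 litters, with the same litter highest and the same 2 lowest as for Gad1. Like Gad1, limma called Tbr1 higher at P60 than at P14 only in fits that left out that litter. Its log2 change was 1.02 without P14 litter 1 (adjusted p = 0.0175) and 1.00 in the restricted set (adjusted p = 0.0342), against 0.38 with all litters (adjusted p = 0.655). Ndrg4 and Tardbp followed at 0.97 each. For Gad2 on chip B the most alike were Agpat5 (0.97), Shank2 (0.96), which encodes a scaffold of excitatory synapses, and Far1 (0.95). For Slc32a1 they were Zfp1, Sac3d1 and Tle3 at 0.94 each, and for Dlx1 Spin1, Spef1 and Zfp930 at 0.94 each. For Lhx6 they were Apip (0.94), Birc2 and Brd8 (0.93 each). For Pvalb they were Slc25a14 (0.88), which encodes a mitochondrial carrier, Fcf1 (0.86) and 4933434E20Rik (0.84). Calb1 was most like Pdk3 and Dnajc8 (0.92 each) and Taf11 (0.91), Calb2 most like Scmh1 (0.96), Plin2 (0.94) and the tubulin gene Tubb2a (0.93), and Erbb4 most like Arhgef19 (0.91), Zfp113 (0.88) and Kcnmb4os1 (0.87). None of these genes is another member.

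Genes of neighbouring functions were taken from fixed lists, with 1 probe set per gene. Of the fast-spiking cell and perineuronal net genes, 15 were tested and 13 were higher at P60 than at P14, with a median log2 change of 0.63, and 2 passed, both higher. Of all tested probe sets 54.8% were higher. Without P14 litter 1, 10 of the 15 were higher, with a median of 0.45, and in the restricted set 10, with a median of 0.38. The 2 that passed with all litters were Scn4b and Hapln4. Scn4b, a sodium channel subunit of fast-spiking neurons, had 1172 ± 289 (SD, n = 4) at P60 against 347 ± 58.1 (SD, n = 3) at P14 (log2 change 1.58, adjusted p = 0.011). Hapln4, a link protein of perineuronal nets, had 3327 ± 925 against 1363 ± 187 (1.22, adjusted p = 0.0491). Of the others with large changes, the release protein gene Cplx1 had 1.09 (adjusted p = 0.552) with all litters and -0.47 without P14 litter 1, and the muscle-type cytochrome oxidase subunit gene Cox6a2 had -0.85 (adjusted p = 0.337). Kcna1, a potassium channel gene, did not pass with all litters (0.64, adjusted p = 0.244) and rose in the restricted set, by 1.13 (adjusted p = 0.024).

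A further list covered GABA synthesis, packaging and uptake beyond the members, and also held the chloride cotransporter genes Slc12a5 and Slc12a2. Of its genes 8 were tested and 0 were higher at P60 than at P14, with a median log2 change of -0.26, and limma called none with all litters. That count rests on P14 litter 1, without which 3 of the 8 were higher (Glul, Slc12a2 and Slc38a1) and the median was -0.31. The largest changes were those of Slc6a11, a GABA transporter found on astrocytes, with 1455 ± 162 (SD, n = 4) at P60 against 2370 ± 666 (SD, n = 3) at P14 (-0.65, adjusted p = 0.181), Aldh5a1 (-0.58, and -0.26 without P14 litter 1) and Abat (-0.52), both of GABA breakdown, and Glul, which makes glutamine (-0.28, and 0.48 without P14 litter 1). Slc6a11 fell by 0.90 on the log2 scale without P14 litter 1 (adjusted p = 0.0211) and was the only one of the list called there. Of the lineage transcription factors 8 were tested and 3 were higher at P60, with a median of -0.15 and none called. Leaving out P14 litter 1, 4 were higher and the median changed sign, to 0.0681. With all litters Sp9 had 1.49 (adjusted p = 0.187) and Nkx2-1 0.62 (adjusted p = 0.62, and 1.27 without P14 litter 1), sizes that depend on the added constant, since the P14 mean of Sp9 (228) and all age means of Nkx2-1 (163, 246 and 252) did not exceed the Bacillus level of chip C. For the others, Maf had -0.90 (adjusted p = 0.124) and Nr2f2 -0.74 (adjusted p = 0.418).

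Of the interneuron class markers and peptides 13 were tested, 7 were higher at P60 than at P14 and none was called, with a median of 0.09. Sst, the somatostatin gene of a large interneuron class, averaged 3184 ± 2006 (SD, n = 3) at P14, 5877 ± 691 (SD, n = 3) at P28 and 4237 ± 882 (SD, n = 4) at P60. Its log2 change between P60 and P14 was 0.68 with all litters (adjusted p = 0.463) and -0.04 without P14 litter 1. Reln had -0.62 (adjusted p = 0.336), Chodl 0.56 (adjusted p = 0.44) and Nos1 0.56 (adjusted p = 0.355). At P28 against P14, 1 gene of this list was called when P14 litter 1 was left out. It was the opioid precursor gene Penk, which rose by 1.62 (adjusted p = 0.0228). Penk is also on the list of striatal markers summed below, and that sum was highest at P28. Whether its rise came from interneurons was not tested. The Penk probe set used, from 4 on the arrays, carries an f suffix, so its signal may not come from Penk alone.

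**Figure D4:**
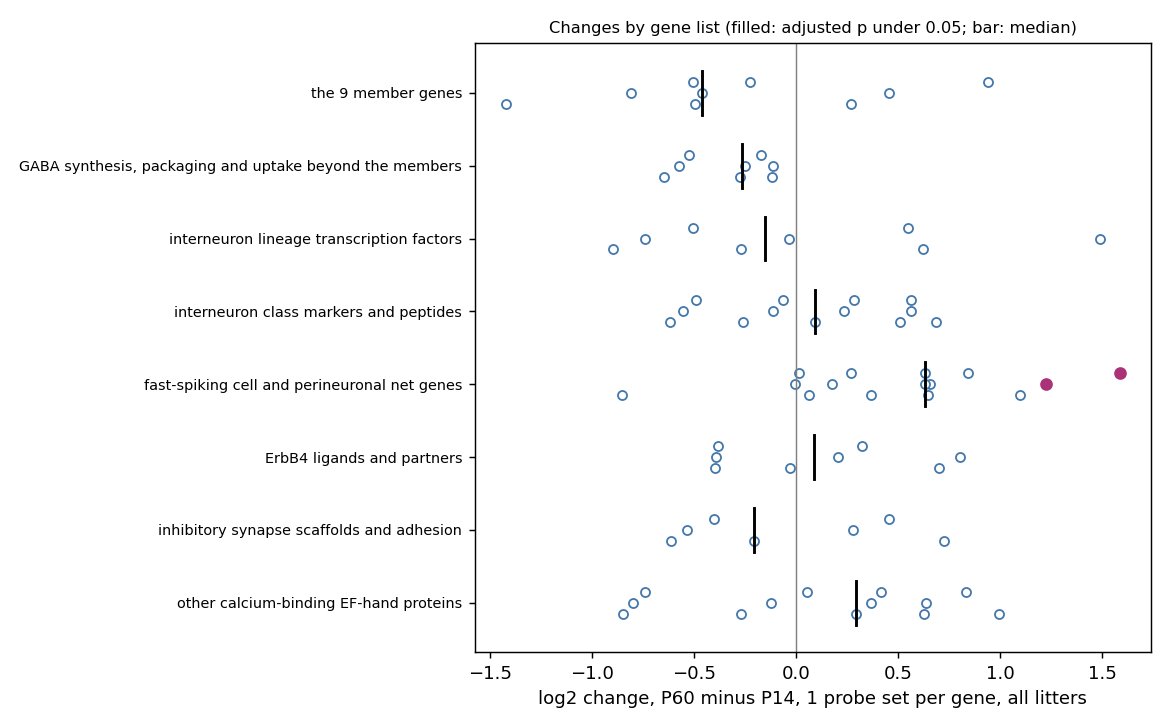
Log2 change between P60 and P14 with all litters for the main probe set of each of the 9 member genes and of the tested genes of 7 related lists; bars are medians and filled points have an adjusted p under 0.05. The filled points are Scn4b (1.58) and Hapln4 (1.22), and the median of the 9 genes is -0.46 with all litters, against -0.22 without P14 litter 1 and -0.0602 for the restricted set.

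Markers of cell types were summed in each litter, with 1 probe set per gene, as a check of the tissue. The interneuron list, of which 12 genes were measured and which holds 8 of the 9 members, summed to 17217 to 23318 at P14, 21285 to 24621 at P28 and 20118 to 22812 at P60, so the ages overlapped, and each of its genes exceeded the Bacillus level in at least 1 litter. Excitatory neuron markers (11 measured) summed to 31274 to 36591 at P14, 26722 to 29779 at P28 and 23444 to 31688 at P60, with every P28 litter below every P14 litter. Striatal markers (8 measured) ran from 5334 to 7352 at P14, from 8558 to 9489 at P28 and from 6370 to 7609 at P60, with P28 above both other ages in every litter. Thalamic markers (8 measured, with the member Calb2 among them, of which Gbx2 never exceeded the Bacillus level) ran from 9133 to 10651 at P14, from 8329 to 9119 at P28 and from 5507 to 9887 at P60, with every P28 litter below every P14 litter. Hippocampal markers (8 measured, with the member Calb1 among them, of which Prox1 and Spink8 never exceeded that level) overlapped between the ages. The thalamic and hippocampal sums are thus in part the members' own signals. Myelin markers (9 measured) summed to 12420 in P14 litter 1, against 5727 and 6302 in the other P14 litters. They ran from 11182 to 18951 at P28 and from 12072 to 16813 at P60, so only P14 litter 1 overlapped with the later ages. Astrocyte markers (10 measured) summed to 29843 in P14 litter 1, against 17645 and 19728 in the other P14 litters, and ran from 18346 to 20041 at P28 and from 15455 to 21914 at P60. Microglia markers (8 measured, of which Aif1 and Itgam never exceeded the Bacillus level) overlapped, from 2428 to 3517 at P14, from 3139 to 3484 at P28 and from 2771 to 3623 at P60. Choroid plexus markers (6 measured, of which Kl and Kcne2 never did) summed to 521 to 877 at P14, 1096 to 1956 at P28 and 1289 to 1602 at P60, with P14 below both later ages in every litter. None of the 6 exceeded the Bacillus level in all litters. At P14 the means of Ttr (40.7), Aqp1 (80.1) and Folr1 (235) lay below it and that of Clic6 (352) above, so the P14 sums are near background. Meningeal and fibroblast markers (7 measured, of which Slc22a6 never exceeded the Bacillus level) summed to 9771 to 10501 at P14, 5573 to 6060 at P28 and 5104 to 6274 at P60, with P14 above both later ages in every litter. The largest difference was that of Igf2, with means of 6160 at P14 and 1786 at P60. Col1a1, Col3a1, Dcn and Slc22a6 also had lower means at P60, whereas Col1a2 (2123 and 2585) and Lum (129 and 162) had higher ones. Blood markers (3 measured) ran from 5272 to 23993 at P14, from 24816 to 34303 at P28 and from 17478 to 51144 at P60, with every P28 litter above every P14 litter. The part of these shifts in the members' values was not tested.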

How the data were processed

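The measurements come from 30 Affymetrix arrays of the types MG-U74Av2, MG-U74Bv2 and MG-U74Cv2 (chips A, B and C), 1 of each for every one of 10 litters. The deposited values are intensity values on a linear scale that the authors made with MAS5, per the submitters' processing notes, which name no version. After trimming 2% at each end, the mean of each deposited array lay between 500.1 and 500.4, and no further scaling was applied. Symbols are those of the platform annotation, updated by gene ID (99.7% of 29197 matched), and a probe set with several symbols was left unnamed.

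The log2 of the signal plus a constant was analysed, the constant being the 20th percentile of the chip type (38.6, 57.8 and 44). In all, 20724 probe sets passed the filter on dim signals, with medians of 207, 252 and 183 as the limits for chips A, B and C. They were fitted per chip type by the lmFit and trended eBayes functions of limma 3.58.1 (R 4.3.3), using every litter and age alone. P-values of the chip types were pooled for the Benjamini-Hochberg adjustment, and 0.05 was the threshold. The steps were tested on simulated data. The main probe set of a gene is its brightest tested one on the first of chips A, B and C that has one. Genes named are the members, list genes past the test, the 4 of each list with the largest change between P60 and P14, and the 3 most like each member. Members, lists, alternatives and the restricted set were chosen with earlier results of these data known. The number of arrays limits the precision. Every title opens with litter 1 and gives a second litter number after the age. The second one, which the source label repeats, was taken as the litter, and the counts of 3, 3 and 4 litters rest on it. These numbers recur between the ages. Deviations of same-numbered litters correlated at -0.06 to 0.13, so the numbers were not taken to pair the samples. Alternatives changed the constant, the filter, the normalization, the variance model, the weights, the block, the adjustment and the arrays included.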

Additional observations from a re-analysis of the deposited data

Results flagged for a closer look

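In P60 litter 2 the Erbb4 probe set of chip C, at a signal of 320, stood apart from the other P60 litters at 247, 247 and 256. Its gap to the nearest of them was 0.859 of the range of the 4 log2 values, more than Dixon's test allows at 95%. This was 1 of 17 member probe sets looked at in this way, and chance marks about 1 in 20. That array had the lowest mean correlation with the others of chip C, at 0.858, and its part in the value was not tested.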

How the results depend on the processing

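Of the log2 changes of member probe sets recomputed under the alternatives, 773 kept direction and side of the threshold, 13 passed it where they had not with all litters, and 36 changed direction. All of those 13 came from array weights, the restricted set or the fit without P14 litter 1. Member probe sets called went from 0 to 3 for P28 against P14, to 5 for P60 against P14 and to 4 for the 3 ages together with array weights, and to 3 for P60 against P14 in the restricted set. Leaving out each litter in turn gave 0 to 2 for P60 against P14 and 0 to 1 for the 3 ages, the higher counts without P14 litter 1. Over all probe sets 82 calls for P60 against P14 became 497, 0 and 28 when the P14 litters 1, 2 and 3 were each left out, 37, 40 and 37 for the P28 litters in that order, 18, 28, 260 and 8 for the P60 litters, 441 in the restricted set, 3621 with array weights, 170 for probe sets above the median on every array (8 members) and 51 without the variance trend. The litter number as a replicate block left 0 calls, and 0 among members. With the block, P60 against P28 turned for Gad2 on chip C (0.0378), Dlx1 (0.0408) and Pvalb 96720_f_at (-0.0166). Quantile normalization turned Calb1 98133_at at P28 against P14 (0.0005) and Pvalb 96720_f_at at P60 against P28 (-0.14), and array weights turned Calb1 98133_at at P28 against P14 (0.22). The restricted set turned Calb1 98133_at (0.23) and 163067_at (0.17) at P28 against P14, Slc32a1 (0.28), Lhx6 (-0.46), Dlx1 (0.45), Pvalb 96720_f_at (-0.0850) and Calb1 116207_at (0.0225) at P60 against P28, and Calb1 116207_at (0.33) and 163067_at (0.0887) at P60 against P14. Leaving out each litter in turn, changes that turned ranged at P28 against P14 from -0.18 to 0.87 for Gad1, -0.33 to 0.23 for Calb1 98133_at, -0.32 to 0.30 for 116207_at, -0.43 to 0.17 for 163067_at, -0.41 to 0.0870 for Calb2 and -0.51 to 0.44 for Erbb4. At P60 against P28 they ranged from -0.35 to 0.0378 for Gad2 on chip C, -0.0516 to 0.67 for Lhx6, -0.33 to 0.13 for Dlx1, -0.0574 to 0.13 for Pvalb 96720_f_at and -0.50 to 0.0829 for Pvalb on chip C. At P60 against P14 they ranged from -0.54 to 0.18 for Lhx6 and -0.58 to 0.0377 for Calb1 116207_at. The cause was not tested. Signals near the Bacillus level limit Gad2 on chips B and C, Pvalb 96720_f_at and Erbb4.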

Other observations

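Of the ErbB4 ligands and partners 8 genes were tested and 4 were higher at P60 than at P14, with a median log2 change of 0.09, and limma called none. The largest changes were those of Nrg4, a neuregulin, at 0.80 (adjusted p = 0.279), Erbb3, a related receptor, at 0.70 (adjusted p = 0.303), Hbegf at -0.40 (adjusted p = 0.342) and Nrg3 at -0.39 (adjusted p = 0.643, and 0.000604 without P14 litter 1). Of the inhibitory synapse scaffolds and adhesion genes 7 were tested and 3 were higher, with a median of -0.21 and none called. Gphn, which encodes the scaffold gephyrin of inhibitory synapses, averaged 540 ± 107 (SD, n = 4) at P60 against 836 ± 14.4 (SD, n = 3) at P14, a log2 change of -0.61 (adjusted p = 0.161). Nrxn2 had 0.72 (adjusted p = 0.586, and -0.28 without P14 litter 1), Lhfpl4 -0.53 (adjusted p = 0.3) and Gabrb2 0.45 (adjusted p = 0.696, 0.00723 without P14 litter 1, -0.60 for the restricted set).

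Of the other calcium-binding EF-hand genes 13 were tested, 8 were higher at P60 than at P14 and none was called with all litters, with a median of 0.29. Cabp1 had 0.99 (adjusted p = 0.343, and 0.22 without P14 litter 1), Vsnl1 -0.85 (adjusted p = 0.111), Ncs1 0.83 (adjusted p = 0.332) and S100a10 -0.80 (adjusted p = 0.511, and -1.28 without P14 litter 1). Vsnl1, which encodes a neuronal calcium sensor, averaged 7485 ± 1683 (SD, n = 4) at P60 against 13296 ± 580 (SD, n = 3) at P14. Without P14 litter 1, Hpcal1 was the only gene of this list called, at 0.70 for P60 against P14 (adjusted p = 0.0414).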
